A study of Mus musculus with 313 samples.

Results

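The comparison set 14 single cells sorted as lymphoid tissue inducer precursors (LTiP) against 41 single cells sorted as innate lymphoid cell precursors (ILCP) in which the transcript of Cxcr5 was detected, 55 cells of the 313 in the series. Cxcr5 encodes the receptor for the chemokine CXCL13, and the protein was one of the markers that defined the LTiP gate. All 55 cells came from pooled mouse fetal livers at embryonic day 15. The number 2 or 3 in the cell names was taken as the sort, which the labels do not define, and all 55 had the number 3. None of the 55 cells carried lineage markers, and each had surface α4β7 integrin and IL-7Rα, a chain of the interleukin-7 receptor. The LTiP cells were in addition negative for PLZF, the protein of Zbtb16, and positive for CXCR5. The ILCP cells were PLZF-positive, and their gate as labelled did not use CXCR5. The labels give no activation agent, and the strain and the way PLZF was read in the sort are not given in the sources used here. Each cell was measured with 100 quantitative RT-PCR assays. Detection of a gene in a cell means a Ct below 24, the Ct being the PCR cycle at which the signal crosses a threshold.

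The 41 ILCP cells were chosen from the 90 ILCP cells of sort 3 by their Cxcr5 Ct alone, so Cxcr5 is no result. Their Cxcr5 Ct ran from 16.50 to 22.02, and the other 49 cells gave no Cxcr5 Ct, so that no cell lay at or just above the limit. Each of the groups was 1 pool of cells. Cells of a pool are not replicates, so no test was made. Shares of cells carry exact Clopper-Pearson 95% intervals, which cover counting error only, and a difference of 30 percentage points or more was the fixed size used to name genes.

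LTi cells are the innate lymphocytes that start lymph nodes and Peyer's patches in the fetus. They do so through lymphotoxin and RANK ligand, members of the tumour necrosis factor family that signal to stromal cells, and they find the forming organ through CXCR5. ILCP cells give rise to the other helper-like innate lymphoid cells (ILCs), pass through a stage of high PLZF, and share early transcription factors such as TCF-1 and GATA3 with T cell precursors. Cxcr5 transcript in a PLZF-positive cell thus sets a chemokine receptor of the LTi lineage beside the defining factor of the ILC precursor.

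LTiP cells carried transcripts of the LTi genes Lta, Cd4, Tnfsf11 and Il23r, in combinations that no Cxcr5-detected ILCP cell of sort 3 showed. They gave no signal for Cd27, H19 or Hes1, at least 1 of which was detected in every one of these ILCP cells. Of the 4 LTi markers, 8 of 14 LTiP cells had at least 2 and 12 had at least 1. Among the 41 ILCP cells 6 had exactly 1 marker and 0 had 2 or more. Of Cd27, H19 and Hes1, 23 of the 41 ILCP cells had all 3, 16 had 2 and 2 had 1, while all 14 LTiP cells had none. These 7 genes were picked with their values known, and the counts are a description. Neither trait was confined to LTiP cells. Of 24 Cxcr5-detected ILCP cells of sort 2, 5 had at least 2 of the markers and 5 had none of Cd27, H19 and Hes1.

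**Figure D1:**
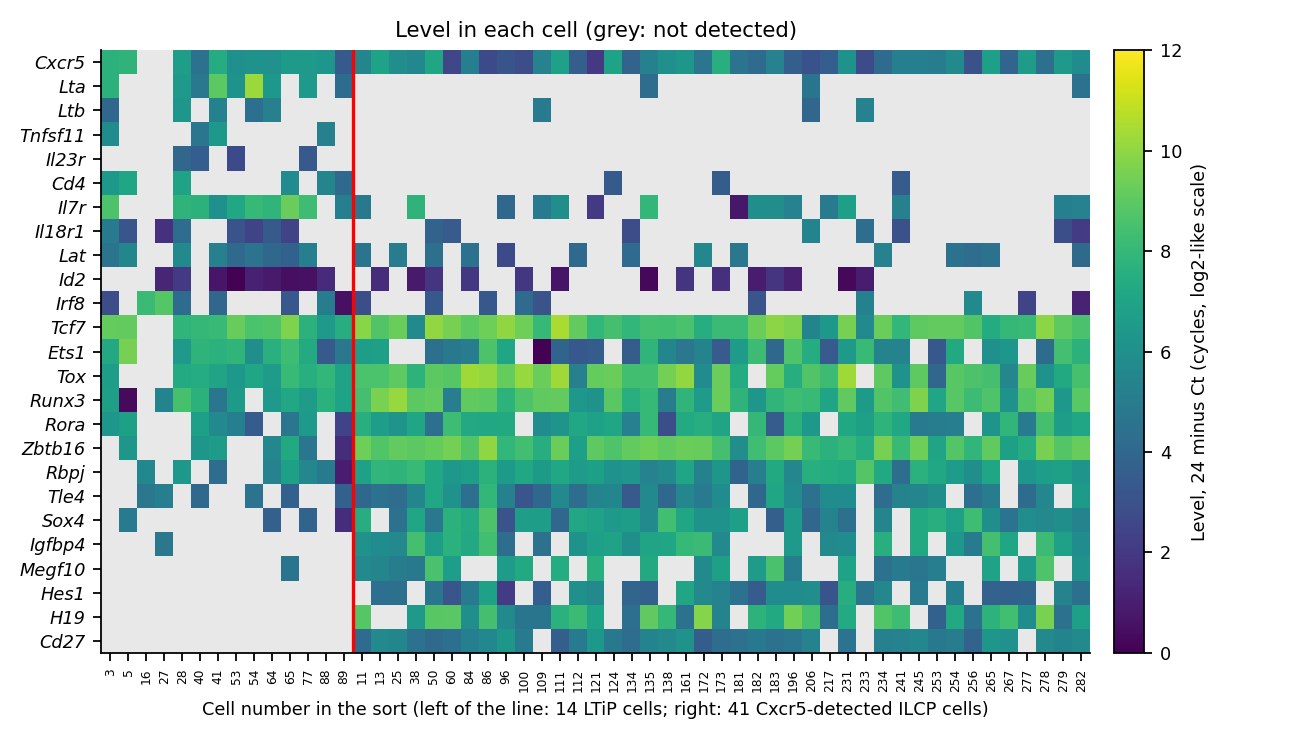
Heat map of the level (24 minus Ct, in cycles) of 25 genes in each of the 14 LTiP cells (left of the red line) and 41 Cxcr5-detected ILCP cells (right), in order of cell number, with grey for a gene not detected. The rows of Lta to Cd4 are filled mostly on the left and those of Hes1, H19 and Cd27 only on the right. The LTiP columns 16 and 27 are grey from Cxcr5 to Il7r.

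Before the results, 3 LTiP cells stood apart. Cells 16 and 27 were labelled CXCR5-positive but gave no Cxcr5 Ct, and neither was detected with Lta, Ltb, Tnfsf11, Il23r, Cd4, Il7r, Tcf7, Ets1, Tox, Rora or Zbtb16. The other 12 LTiP cells all had Tcf7 and Ets1. Cells 16 and 27 had the lowest Irf8 Ct values of the LTiP cells, 15.83 and 15.17. They were also the only LTiP cells with Pira11 (18.98 and 17.38) and Zbtb7b (19.74 and 18.39), and 2 of the 3 with Myc. The 92 aLP cells of sort 3 are the precursors with neither PLZF nor CXCR5. Irf8 (79.3%) and Pira11 (38%) were more common in them than in ILCP cells of sort 3. Irf8 was in 24.4% of those with Cxcr5 and 40.8% of those without, Pira11 in 2.44% and 4.08%. Myc was not particular to aLP cells. It was in 65.2% of them, in 53.7% of ILCP cells with Cxcr5 and 71.4% without, and in 62.5% of Cxcr5-detected ILCP cells of sort 2. The Actb Ct of cells 16 and 27, 12.86 and 12.08, was not weak. With the other 12 LTiP cells, 12 of 92 assays (13%) were higher in LTiP by at least 30 points and 17 (18.5%) lower. Cell 89 had the highest mean Ct of Actb, Gapdh and Hprt, 19.02, against at most 15.78 in the other LTiP cells, yet 33 assays were detected in it. Without it the counts against all 41 ILCP cells were 10 higher and 15 lower.

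LTiP cells gave fewer detected assays and less housekeeping cDNA than the ILCP cells. Single LTiP cells had 20 to 42 assays detected (median 34.5), and single Cxcr5-detected ILCP cells 31 to 50 (median 41). The mean Ct of Actb, Gapdh and Hprt, where higher means less cDNA, was 13.95 to 19.02 in LTiP (median 15.4) and 9.40 to 16.6 in ILCP (median 14.4). The lowest ILCP value came from a cell with a Hprt Ct of 2.51, the next lowest Hprt Ct being 14.29. Tbp, a weakly expressed general transcription factor, was detected in 21.4% of LTiP and 48.8% of ILCP cells. With the detection limit moved in each cell by its mean housekeeping Ct, the counts of assays higher and lower by at least 30 points were 9 and 15, against 8 and 15 at the fixed limit. All 14 LTiP cells were numbered 1 to 96, as were 9 of the 41 ILCP cells, and what the number ranges stand for is not given in the labels. With Cxcr5 set aside, 93 assays gave a Ct below 24 somewhere among the 55 cells, and of these 65.6% had a lower share in LTiP and 31.2% a higher one. The median difference was -5.57 points.

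**Figure D2:**
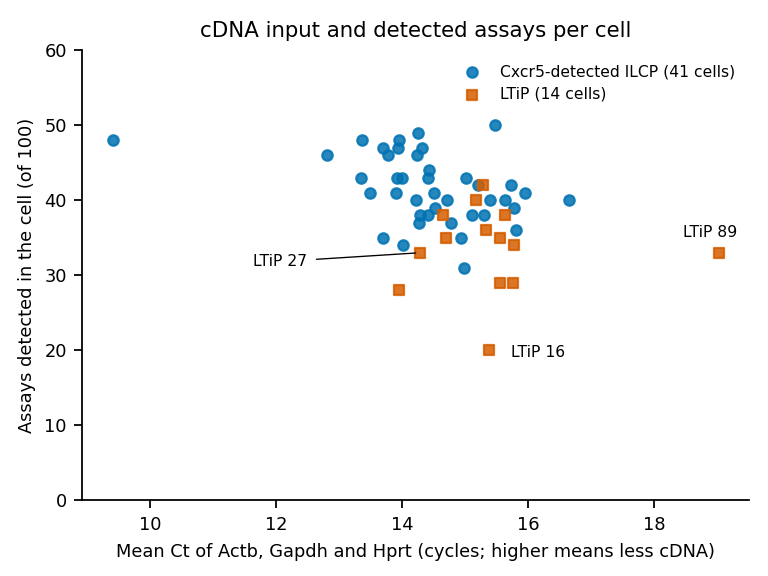
Number of assays detected in each cell (of 100) against its mean Ct of Actb, Gapdh and Hprt in cycles, for 14 LTiP cells (squares) and 41 Cxcr5-detected ILCP cells (circles). Most LTiP cells lie to the right of and below the ILCP median of 41 assays, cell 16 has the fewest assays (20), and cell 89 the highest Ct (19.02).

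LTi effector genes were detected in more LTiP cells. Lta encodes lymphotoxin α, which LTi cells present to stromal cells of the forming lymph node. Its share was 64.3% in LTiP (9 of 14 cells, interval 35.1 to 87.2) and 7.32% in Cxcr5-detected ILCP (3 of 41 cells, 1.54 to 19.9). Its level, 24 minus the Ct, was 4.25 to 10.2 in the LTiP cells that had it (median 6.48) and 4.31, 4.48 and 4.66 in the 3 ILCP cells. The share intervals of Lta did not overlap, as was so for 13 of 93 assays (14%) in one direction or the other. Restricting both sides to cells numbered 1 to 96 gave Lta in 9 of 14 LTiP and 0 of 9 ILCP cells.

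Ltb is the gene of lymphotoxin β, which anchors lymphotoxin α to the membrane. It was found in 35.7% of LTiP cells (5 of 14, 12.8 to 64.9) and 7.32% of ILCP cells (3 of 41, 1.54 to 19.9). The Ltb difference of 28.4 points was below the size used, and its intervals overlapped. All 5 LTiP cells with Ltb also had Lta, while 4 had Lta without Ltb. Tnfsf11 encodes RANK ligand, needed for lymph node formation. Its levels were 5.82, 4.73, 6.38 and 5.24 in LTiP cells 3, 40, 41 and 88, the 4 of 14 that had it (28.6%, interval 8.39 to 58.1), and 0 of 41 ILCP cells had it (0 to 8.60%). Il23r encodes the interleukin-23 receptor of LTi cells and group 3 ILCs. Its levels were 3.9, 3.6, 2.7 and 3.3 in LTiP cells 28, 40, 53 and 77, again 4 of 14, and 0 of 41 ILCP cells had it. Only cell 40 had both Tnfsf11 and Il23r, and all 4 cells with Il23r had Lta. The intervals of LTiP and ILCP overlapped narrowly for both genes.

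Cd4 is the co-receptor gene of helper T cells that mouse fetal LTi cells also carry. It was detected in 6 of 14 LTiP cells (42.9%, 17.7 to 71.1) and 3 of 41 ILCP cells (7.32%, 1.54 to 19.9). The intervals of Cd4 overlapped. Its level ran from 4.12 to 7.09 in the LTiP cells with it and from 3.41 to 3.53 in the 3 ILCP cells. Those 3 ILCP cells were not the 3 with Lta. In LTiP, 3 cells had both Lta and Cd4, 6 had Lta alone and 3 had Cd4 alone. Tnfrsf11a, the gene of RANK, did not follow the ligands, with 2 of 14 LTiP cells (14.3%) and 6 of 41 ILCP cells (14.6%).

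Lta had the largest difference of share on the LTiP side. Tnfsf11 and Il23r differed by 28.6 points each, below the size used, and no ILCP cell of the comparison had them. The sequences upstream of Lta, Tnfsf11 and Il23r are shown. They are the 250 bases before the RefSeq start, on the minus strand of GRCm38.p6, at chr17:35205352-35205601, chr14:78308044-78308293 and chr6:67491856-67492105, written 5′ to 3′. Capitals mark matches to AGGTCA, the half-site of nuclear receptors such as RORα, or to TGGGAA, the core letters bound by RBPJ, on either strand.
Lta: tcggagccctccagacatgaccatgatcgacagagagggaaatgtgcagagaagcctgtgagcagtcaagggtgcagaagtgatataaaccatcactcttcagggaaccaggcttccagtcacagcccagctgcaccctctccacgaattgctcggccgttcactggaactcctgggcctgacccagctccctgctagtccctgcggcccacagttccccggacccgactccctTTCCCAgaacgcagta
Tnfsf11: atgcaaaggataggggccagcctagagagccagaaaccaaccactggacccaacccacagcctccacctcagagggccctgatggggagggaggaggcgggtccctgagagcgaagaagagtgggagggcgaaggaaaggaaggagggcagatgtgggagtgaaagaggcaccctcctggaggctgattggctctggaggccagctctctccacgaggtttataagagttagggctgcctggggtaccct
Il23r: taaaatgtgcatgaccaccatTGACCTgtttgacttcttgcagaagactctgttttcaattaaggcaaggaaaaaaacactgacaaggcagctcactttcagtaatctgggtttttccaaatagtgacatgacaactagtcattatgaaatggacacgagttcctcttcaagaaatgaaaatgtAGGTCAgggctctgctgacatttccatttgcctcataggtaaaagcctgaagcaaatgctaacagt
The Il23r window held 2 matches to AGGTCA, starting 66 and 229 bases before the start, the Lta window 1 match to TGGGAA, and the Tnfsf11 window neither. Of 32851 such windows in the RefSeq table, 14.0% held AGGTCA and 21.6% TGGGAA on either strand. A match is a description of the letters.

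Over the list of LTi genes, 10 were compared and Cxcr5 left out. The share was higher in LTiP for 8 and lower for 2 (Ahr and Tnfrsf11a), and 5 were higher by at least 30 points, among them Lta, Cd4, Il7r and Id2. Over all 93 assays 8 (8.6%) were higher by that much. The list's median difference was 29.4 points, and 33.8 points with the 12 LTiP cells that had Cxcr5, against -5.57 and -4.88 points over all assays. The list was chosen with earlier results of these data known. An LTiP cell had 1 to 8 of the list's genes (median 5) and a Cxcr5-detected ILCP cell 0 to 4 (median 2).

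**Figure D3:**
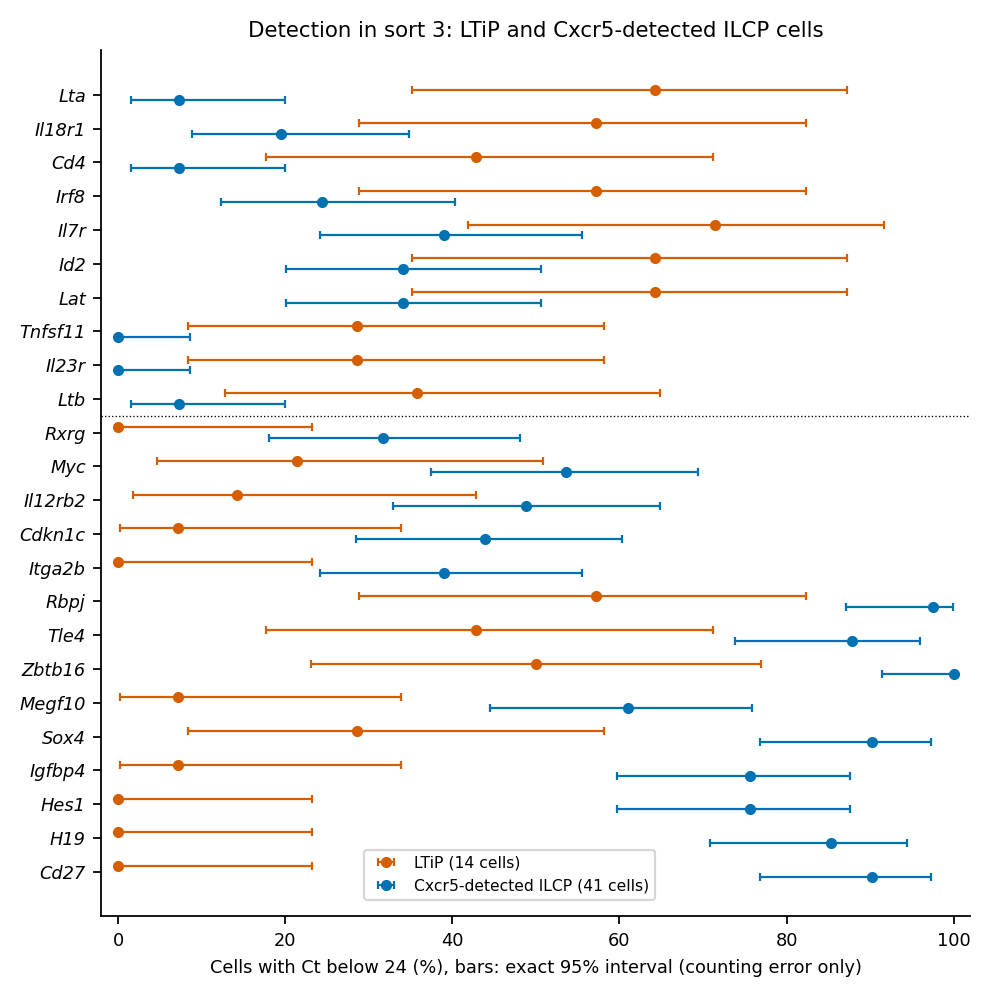
Share of cells (%) with a Ct below 24 for 24 genes in 14 LTiP cells (orange) and 41 Cxcr5-detected ILCP cells (blue), with exact 95% intervals that cover counting error only. Genes above the dotted line had a higher share in LTiP, led by Lta (64.3% against 7.32%), and those below it a lower share, down to Cd27 (0% against 90.2%).

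Il7r, Il18r1, Lat and Id2 were also detected in at least 30 points more of the LTiP cells. Il7r, whose protein all cells were sorted on, had shares of 71.4% in LTiP (10 of 14) and 39% in ILCP (16 of 41). Its level in those cells was 7.6 ± 1.20 in LTiP and 5.18 ± 1.83 in ILCP (SD over cells, n = 10 and 16 cells). All 9 LTiP cells with Lta had Il7r. Il18r1, the interleukin-18 receptor gene, had shares of 57.1% in LTiP (8 of 14) and 19.5% in ILCP (8 of 41). Lat, an adaptor of antigen receptor signalling, was detected in 64.3% and 34.1%, and Id2, the inhibitor of E proteins needed by all ILCs, also in 64.3% and 34.1%. Id2 levels were low, at most 2.04 in LTiP and 1.94 in ILCP, and with any Ct counted as detected its difference was 7.84 points. For Il7r, Il18r1, Lat and Id2 the intervals of the groups overlapped. Ifngr1, an interferon-γ receptor gene, was found in 92.9% of LTiP (13 of 14) and 63.4% of ILCP (26 of 41), just under the size of 30 points.

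Irf8, a factor of myeloid, dendritic and B cells, was found in 57.1% of LTiP (8 of 14) and 24.4% of ILCP (10 of 41). Without cells 16 and 27 it was 6 of 12 (50.0%), a difference of 25.6 points, below the size used. Its level ran from 0.56 to 8.83 in LTiP, the top 2 being cells 16 and 27 at 8.17 and 8.83, and from 1.13 to 5.69 in ILCP. Of the other genes of B, myeloid and dendritic cells, Ebf1 and Pax5 were detected in none of the 55 cells and Rag2 in 0 of 14 LTiP and 2 of 41 ILCP cells. Bcl11a was detected in 2 of 14 LTiP and 0 of 41 ILCP cells, and Pira11 in 2 of 14 and 1 of 41. Without cells 16 and 27 these were 1 of 12 for Bcl11a and 0 of 12 for Pira11. The median difference over the 4 genes of this list that were compared was 13.1 points, and 2.95 points with those 12 cells. An LTiP cell had 0 to 3 of the 6 genes of this list on the panel and an ILCP cell 0 or 1. The part of such transcripts in the other differences was not tested.

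The genes detected in fewer LTiP cells were more numerous. Cd27, a tumour necrosis factor receptor of lymphocyte precursors, H19, an imprinted noncoding RNA of fetal tissue, and Hes1, a repressor induced by Notch, were found in no LTiP cell. For each, 0 of 14 cells allows a share of up to 23.2% by the exact interval. Among the 41 ILCP cells Cd27 was detected in 37 (90.2%, 76.9 to 97.3), H19 in 35 (85.4%, 70.8 to 94.4) and Hes1 in 31 (75.6%, 59.7 to 87.6). In the ILCP cells that had them, Cd27 levels ran from 3.6 to 6.41 (median 5.03), H19 from 3.74 to 9.81 (median 7.32) and Hes1 from 2.1 to 7.48 (median 4.72). Even the 3 ILCP cells with Lta had Cd27, H19 and Hes1 each. Of the 93 assays, 15 (16.1%) were lower in LTiP by at least 30 points, and for 11 (11.8%) the intervals did not overlap. Zbtb16, the gene of the PLZF gate, was one of the 15 and one of the 11. Only Cxcr5 was set aside, so Zbtb16 stayed in all counts and medians.

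H19 belonged to a list of growth and imprinted genes in which all 7 compared members had a lower share in LTiP, 4 of them by at least 30 points, and 6 of 7 were lower with the 12 LTiP cells that had Cxcr5. The background was 65.6% lower and 16.1% lower by that size, and the list's median was -32.2 points. Igf2, the neighbour of H19 in the same imprinted domain and a fetal growth factor, was detected in 0 of 14 LTiP and 10 of 41 ILCP cells (24.4%). Cdkn1c, an imprinted inhibitor of the cell cycle, was detected in 1 of 14 (7.14%) and 18 of 41 (43.9%). Igfbp4, a binding protein of insulin-like growth factors, was detected in 31 of 41 ILCP cells (75.6%) and in 1 LTiP cell, cell 27, so in 0 of the 12 with Cxcr5. Myc was detected in 3 of 14 (21.4%) and 22 of 41 (53.7%), and in 1 of the 12. Tsc22d3, induced by glucocorticoids (50.0% and 63.4%), and the survival gene Bcl2 (71.4% and 75.6%) differed by less.

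Among Notch and co-repressor genes, Rbpj, the DNA-binding partner of Notch, was detected in 8 of 14 LTiP cells (57.1%, 28.9 to 82.3) and 40 of 41 ILCP cells (97.6%, 87.1 to 99.9). The receptor genes differed by less, with Notch1 in 28.6% and 34.1% and Notch2 in 85.7% and 100%. Of the T lineage and Notch list, 8 of 10 compared genes were lower (65.6% over all assays), 2 of them by at least 30 points, and 2 were higher, Lat and Zbtb7b. The list's median was -14.3 points, and Zbtb7b was found in LTiP in cells 16 and 27 alone. Tle4, a Groucho co-repressor, was detected in 42.9% of LTiP and 87.8% of ILCP cells, whereas its relative Tle1 was detected in 50.0% and 24.4%, and in 41.7% of the 12 LTiP cells with Cxcr5. Tle3 was detected in 85.7% and 97.6%. Members of the Groucho family lay on both sides, 3 lower and 2 higher of 5, with a median of -11.8 points.

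Of the ILC precursor factors, Tcf7, Ets1, Tox, Runx3 and Rora were detected in most cells of both groups. Tcf7, the gene of TCF-1, was detected in 12 of 14 LTiP and 41 of 41 ILCP cells, and in all 12 LTiP cells with Cxcr5. Its level was 8.34 ± 0.92 in LTiP and 8.59 ± 1.19 in ILCP (SD over 12 and 41 cells). Ets1 was detected in 85.7% and 82.9%, Tox in 78.6% and 95.1%, Runx3 in 85.7% and 100%, and Rora in 64.3% and 90.2%. Nfil3 was detected in 57.1% and 41.5%. Sox4, an HMG-box factor, stood apart from these, with 4 of 14 LTiP cells (28.6%, 8.39 to 58.1) and 37 of 41 ILCP cells (90.2%). Bcl11b, needed for T cell commitment and for group 2 ILCs, was detected in 0 of 14 and 10 of 41 (24.4%), Gata3 in 1 of 14 and 12 of 41 (29.3%), and Lef1 in 0 of 14 and 1 of 41. Of the 12 factors, the gate gene Zbtb16 included, 9 were lower and 3 higher, against 65.6% lower over all assays. Their median difference was -15.4 points (-5.57 over all assays), and with the 12 LTiP cells that had Cxcr5 it was -5.89 points, near the -4.88 points of all assays for those cells.

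Zbtb16 was detected in 7 of 14 cells sorted as PLZF-negative and in 41 of 41 ILCP cells. PLZF was the gate, so this is a check and no result. The level in the 7 LTiP cells was 1.57 to 7.31 (median 6.33), below the ILCP median of 8.80. All 7 had Cxcr5, 5 of them had Lta and 3 had Cd4, so LTi markers and Zbtb16 transcript were found in the same cells. All 4 LTiP cells with Sox4 were among these 7. With the 7 LTiP cells without Zbtb16 alone, 4 of which had Lta, the Lta difference was 49.8 points. These 7 included cells 16 and 27, in which Lta was not detected. The Lta difference without Zbtb16 and without those cells was not computed, so the value cannot be tied to the absence of Zbtb16. The differences of Cd27, H19 and Hes1 were as large as with all 14, since none of the 14 had them.

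Further genes lower in LTiP by at least 30 points were Megf10, an engulfment receptor (1 of 14 and 25 of 41), and the integrin gene Itga2b of megakaryocytes (0 of 14 and 16 of 41). Il12rb2, an interleukin-12 receptor chain, was detected in 2 of 14 and 20 of 41, and the retinoid X receptor gene Rxrg in 0 of 14 and 13 of 41. Spon2, a secreted matrix protein, lay on the other side with 5 of 14 (35.7%) and 4 of 41 (9.76%). Over all 93 assays 61 (65.6%) were lower, with a median of -5.57 points. With all 14 LTiP cells the ILC2 list was near that share, with 6 of 9 genes lower, 1 of them by at least 30 points (median -20.2 points). Of its 3 higher genes, Il13 and Il1rl1 were found in LTiP in cell 27 alone. With the 12 LTiP cells that had Cxcr5, 7 of 8 compared ILC2 genes were lower (median -15.3 points), against 59 of 92 assays. Among the ILC2 genes Ccr8 was at 28.6% and 48.8%. The ILC1 and NK list was near the 65.6% of all assays, with 5 of 7 lower (median -7.32 points). Among them was Tbx21, the gene of T-bet, in 0 of 14 and 10 of 41. Of the cytokine receptors 6 of 9 were higher (median 4.70 points), and 5 of 9 with the 12 LTiP cells that had Cxcr5. Homing receptors and integrins had 4 of 5 lower (median -20.2 points). The TNF family list had 3 of 6 lower and 3 higher (median 14.0 points). That list held the markers Lta and Tnfsf11 and left out other family genes on the panel. Those were Tnfsf14, Tnfrsf1a and Tnfrsf1b, with differences of -2.61, -22.5 and 4.53 points.

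**Figure D4:**
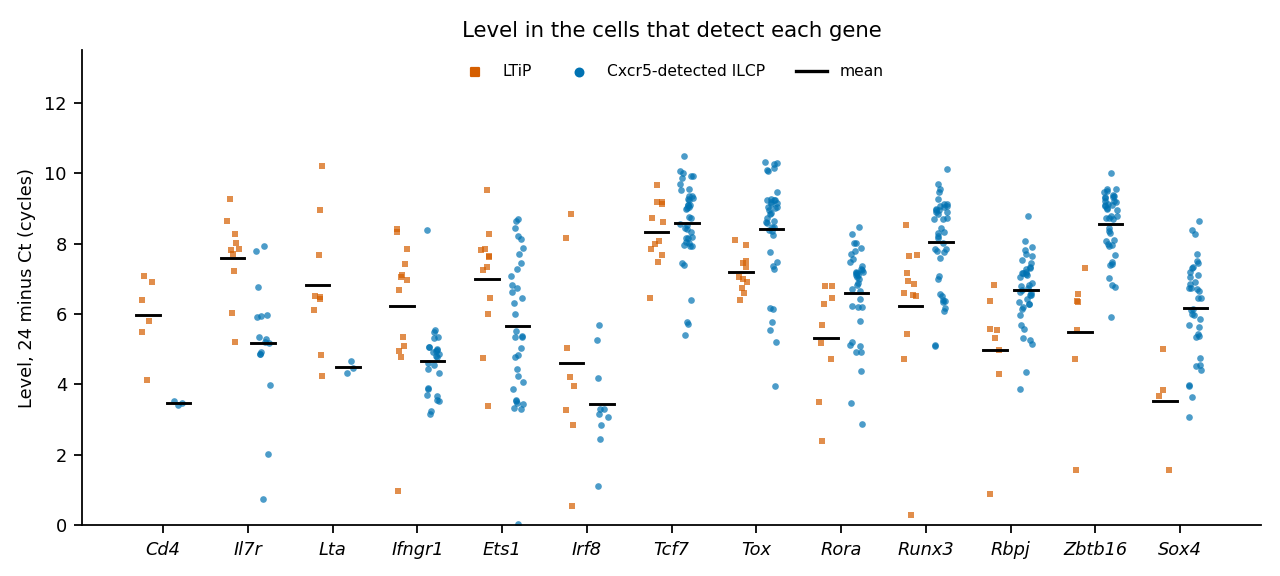
Level (24 minus Ct, in cycles) of 13 genes in each cell that detected the gene, for LTiP (orange squares) and Cxcr5-detected ILCP (blue circles), with the mean as a black line. Il7r and Ets1 lie higher in LTiP, Zbtb16 and Runx3 lie higher in ILCP, and the Tcf7 means of 8.34 and 8.59 are close.

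Among cells that detected a gene, levels also differed. Of 50 assays with at least 3 detecting cells in each group, Cxcr5 aside, 17 had a higher mean level in LTiP and 33 a lower one (median difference -0.29 cycles). After subtraction of each cell's mean level of Actb, Gapdh and Hprt, 39 were higher and 11 lower (median 0.67 cycles), so that many of these directions depended on the scaling. The differences that kept their direction included Il7r, higher in LTiP by 2.43 cycles (3.47 after scaling), Ifngr1 by 1.57 (2.77) and Ets1 by 1.34 (2.41). Irf8 and Tle1 were higher by 1.17 (2.2) and 0.51 (1.84) with all LTiP cells that had them, but without cells 16 and 27 the differences were -0.13 (1.11) and -0.04 (1.48) cycles, so both unscaled directions rested on those cells. On the lower side Zbtb16 differed by -3.08 cycles (-1.84), Runx3 by -1.82 (-0.84), Rbpj by -1.69 (-0.34), Tle3 by -1.49 (-0.26) and the gate gene Itga4 by -1.42 (-0.43). The spread over cells was wide for Ets1, 6.99 ± 1.65 in LTiP and 5.65 ± 2.01 in ILCP (SD over 12 and 34 cells). The housekeeping assays themselves were lower in LTiP, Actb by 0.72 cycles, Gapdh by 0.96 and Hprt by 1.33. Without the Hprt Ct of 2.51 the ILCP Hprt level was 7.30 ± 1.33 (SD over 40 cells). The ILCP cell with that Ct was kept in the scaled levels, which its low Hprt Ct makes lower in that cell. Scaled differences without it were not computed.

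Differences of share of like size were found with the ILCP cells inside the LTiP range of housekeeping Ct. That range, 13.95 to 19.02, reached up to cell 89, while the highest ILCP value was 16.64. The ILCP cells were thus not matched to the LTiP cells in housekeeping Ct, and the part of cDNA input was not tested. The 29 ILCP cells whose mean Ct of Actb, Gapdh and Hprt fell within the LTiP range gave differences of 57.4 points for Lta, 32.5 for Cd4, -86.2 for Cd27 and H19, and -79.3 for Hes1. Within cells numbered 1 to 96, 14 LTiP against 9 ILCP, Cd27 was detected in 0 of 14 and 9 of 9, H19 and Hes1 in 0 of 14 and 7 of 9, and Cd4 in 6 of 14 and 0 of 9. In that range 25 of 87 assays (28.7%) were lower in LTiP by at least 30 points and 7 (8.05%) were higher. They held 14 of the 15 lower ones and 5 of the 8 higher ones named by all cells, the others being Il12rb2 on the lower side and Id2, Irf8 and Lat on the higher.

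A further set of ILCP cells had more of the LTi genes. In sort 2, whose cells the rule did not use and which had no LTiP cells, 24 ILCP cells had Cxcr5. Lta was detected in 8 of these 24 (33.3%, 15.6 to 55.3), Ltb in 9 (37.5%), Cd4 in 6 (25%), and Tnfsf11 and Il23r in 1 each. At least 2 of the 4 LTi markers were found in 5 of the 24 cells, against 0 of the 41 in sort 3. Il18r1 was detected in 58.3% and Il7r in 62.5%. Against these cells 16 of 93 assays (17.2%) differed by at least 30 points, of which Lta and Irf8 were higher in LTiP. The Lta difference was 31 points. Ltb and Il18r1 had no higher share in LTiP, with differences of -1.79 and -1.19 points. This comparison crosses the sorts, and the sort and the group cannot be told apart in it.

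On the lower side, Cd27 was detected in 16 of these 24 cells (66.7%), H19 and Hes1 in 12 each (50.0%), Megf10 and Igfbp4 in 9 each (37.5%), Rbpj in 23 (95.8%) and Zbtb16 in all 24. Against these cells 14 of 93 assays (15.1%) were lower in LTiP by at least 30 points, 10 of them among the 15 of sort 3. Tle4 (62.5%) and Sox4 (58.3%) were nearer to the LTiP cells in sort 2. Of the 24 cells, 5 had none of Cd27, H19 and Hes1, which no Cxcr5-detected ILCP cell of sort 3 lacked together.

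Among the 49 ILCP cells of sort 3 without Cxcr5, Lta was found in 10.2%, Cd4 in 8.16%, and Tnfsf11 and Il23r in none, against 7.32%, 7.32% and none in those with Cxcr5. At least 1 of the 4 markers was found in 9 of the 49 and in 6 of the 41. None of these 49 cells had 2 of the 4 markers, and 5 had none of Cd27, H19 and Hes1. Cd27 was detected in 73.5%, H19 in 57.1% and Hes1 in 51.0% of them. Against these cells 4 of 93 assays (4.3%) were higher in LTiP by at least 30 points, and 16 (17.2%) were lower. Among them were 3 of the 8 higher and 13 of the 15 lower ones found against the cells with Cxcr5, Cdkn1c and Megf10 being the exceptions on the lower side.

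**Figure D5:**
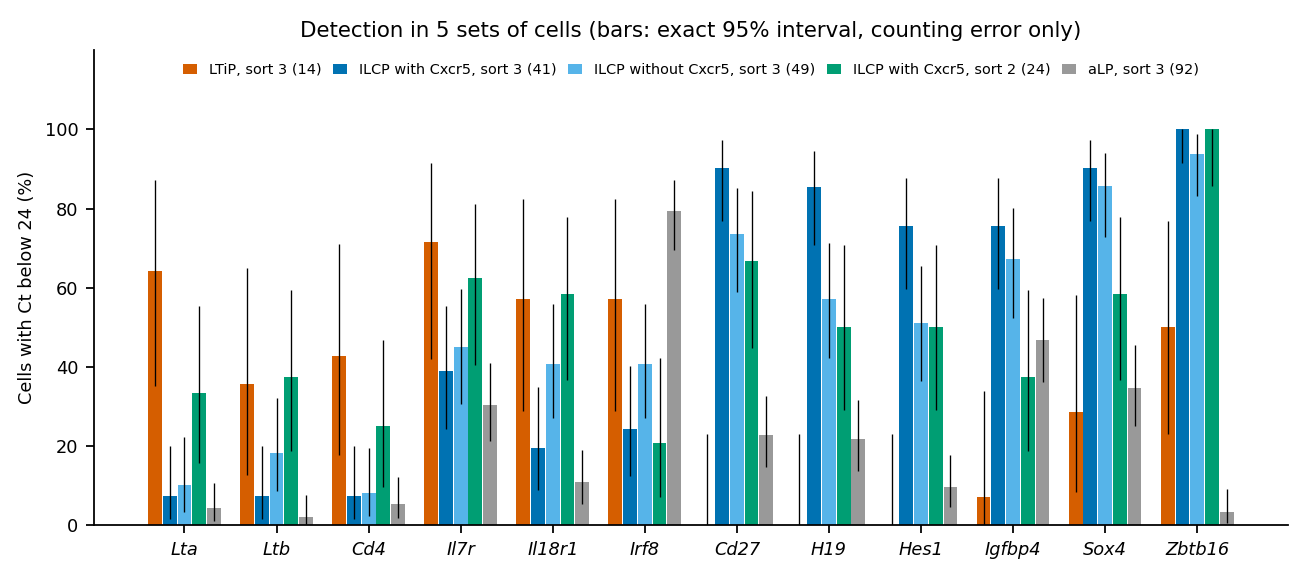
Share of cells (%) with a Ct below 24 for 12 genes in LTiP, in ILCP of sort 3 with and without Cxcr5, in ILCP of sort 2 with Cxcr5, and in aLP of sort 3, with the number of cells in the legend and exact 95% intervals as lines. Lta is highest in LTiP (64.3%) and second in the ILCP cells of sort 2 (33.3%), and Cd27, H19 and Hes1 are at 0 in LTiP alone.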

How the data were processed

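Raw Ct values of 100 assays in 313 single cells were used as deposited by the authors, per the file header, with no normalization. Per the labels' protocol, RNA was reverse transcribed, preamplified for 22 cycles and run on a Biomark HD. The labels name SYBR Green while the protocol describes probe assays. The rule behind a missing Ct was not given in the sources used here. A Ct step of 1 stands for about 2 times the cDNA. The study counts 339 cells and 299 after its housekeeping filter. Which of the 313 used here passed was not stated, so all were kept. Cells were grouped by title, and the number 2 or 3 in a name was taken as the sort, though no label defines it. The LTiP cells, the ILCP cells and the gene lists were chosen with earlier results of these data known.

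A gene was detected at a Ct below 24, and the level was 24 minus the Ct. All 55 cells had at least 5 assays detected and no 2 had the same profile. Shares were compared as percentage points without a test. Genes were named if they were in the LTi or ILC precursor lists, were gate or housekeeping genes, were among the 12 largest differences of at least 30 points in each direction, or were among up to 4 examples per other list. Level differences were named for the 5 largest in each direction with at least 5 detecting cells in each group. Values of 2 assays are not reported here, though both stayed in all counts and medians. Alternatives varied the detection limit, the Cxcr5 limit, the cells included, the housekeeping scaling and the size used. Those without LTiP cell 89, without the ILCP cell of extreme Hprt Ct, with a limit moved by the housekeeping median, and of levels without LTiP cells 16 and 27 were added after seeing the data. The calculation was run on simulated data, with recovery of the changes put in required only for groups far larger than those here. How often changes are missed or falsely named at the cell numbers used is not reported. Of the assay names, 98 matched a RefSeq symbol of GRCm38.p6, 1 a synonym and 1 none. Python 3.11.15, pandas 2.3.3, scipy 1.17.1 and matplotlib 3.10.9 were used.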

Additional observations from a re-analysis of the deposited data

Results flagged for a closer look

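Il1r1, the interleukin-1 receptor gene, was detected below a Ct of 24 in none of the 55 cells, but gave a later Ct in 4 of 14 LTiP cells (28.6%, exact interval 8.39 to 58.1) and in 1 of 41 Cxcr5-detected ILCP cells (2.44%, 0.0617 to 12.9). The Ct values were 25.03, 26.53, 26.58 and 32.15 in LTiP cells 3, 5, 64 and 54, and 28.88 in the ILCP cell. Of the 49 ILCP cells of sort 3 without Cxcr5, 1 gave an Il1r1 Ct. Late Ct values were also more common in LTiP over all assays. Of all Ct values, 31 of 501 (6.19%) were at or above 24 in LTiP and 32 of 1736 (1.84%) in Cxcr5-detected ILCP. The Il1r1 values lie outside the detection limit, so they entered no share above, and the difference was not tested.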

How the results depend on the processing

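No paired analysis was possible because each group of the comparison was 1 pool of cells and no test was made. The count of 8 assays higher in LTiP by at least 30 points was 3 against all 90 ILCP cells of sort 3 and 2 against the Cxcr5-detected ILCP cells of sort 2, and 14 and 2 at a size of 20 or 40 points. The count of 15 lower was 25 among cells numbered 1 to 96, and 28 and 10 at a size of 20 or 40 points. With 1 LTiP cell left out in turn the counts ran from 6 to 11 and from 15 to 18, the LTi median from 28.8 to 33.1 points and the ILC precursor median from -16.8 to -9.10 points. Over the 32 alternatives the LTi median ran from 21.1 to 38.1 and the ILC precursor median from -26.5 to -5.89, neither changing sign. These alternatives were not independent. Taking ILCP cells with any Cxcr5 Ct, or with Zbtb16 detected as well, kept the same 41 cells and could change nothing. Most of the others left out 1 or a few cells, and leaving out cell 89 alone was counted 2 times. The median difference of level turned from -0.29 to 0.67 cycles after housekeeping scaling, and it was -0.82 with any Ct counted and -0.28 with the 12 LTiP cells that had Cxcr5. Of 1184 values of 37 assays under these alternatives, 13 lay outside the 95% interval of the main difference and 1 call reversed, Il18r1 against sort 2 (-1.19 points). Id2 reached 30 points in 14 of 32 alternatives, Lat in 16 and Irf8 in 18. The causes were not tested. With 14 LTiP cells, a gene in up to 23.2% of such cells could be missed, and 1 cell moves a share by 7.14 points.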

Other observations

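Some genes were detected at like shares in LTiP and in the ILCP cells of sort 3 with Cxcr5, and at another share in the ILCP cells of sort 3 without it. Il2rb, a receptor chain for interleukin-2 and interleukin-15, was detected in 64.3% of LTiP, 63.4% of Cxcr5-detected ILCP and 30.6% of the other ILCP cells. Bcl2 was detected in 71.4%, 75.6% and 51.0%. Cxcr6, a chemokine receptor gene of ILC precursors, was detected in 14.3%, 9.76% and 36.7%. In the Cxcr5-detected ILCP cells of sort 2 the shares were 54.2% for Il2rb, 62.5% for Bcl2 and 41.7% for Cxcr6, so that Cxcr6 was not low there. These genes were chosen after their values had been seen and were not tested.

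Megf10 and Tnfrsf9, an activation receptor of the tumour necrosis factor family, were most frequent in ILCP cells with Cxcr5. Megf10 was detected in 61% of these in sort 3, 28.6% of those without Cxcr5 and 7.14% of LTiP, and Tnfrsf9 in 51.2%, 30.6% and 21.4%. In sort 2 the Cxcr5-detected ILCP cells gave 37.5% and 66.7%. Spon2 was detected in 5 of 14 LTiP cells, 4 of which had Lta, in 4 of 41 Cxcr5-detected ILCP cells, none of which had Lta, and in 0 of 92 aLP cells of sort 3.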
